A study of Mus musculus with 8 samples.

Results

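Hepatic expression of 10 markers of the liver sinusoidal endothelium was examined in SIRT7 KO and WT mice. The markers were Lyve1, Stab1, Stab2, Clec4g, Pecam1, Kdr, Fcgr2b, Eng, Tek and Bmp2, 10 of the 12393 genes that could be named on the array. Every probe set whose annotation listed exactly 1 gene symbol, that of a marker, was kept, which gave 16 probe sets of the 22626 tested: 6 markers had 1 probe set, Lyve1, Clec4g and Eng had 2 each, and Fcgr2b had 4. The list was drawn up with the difference between SIRT7 KO and WT in these arrays already known, and it carries the name of Lyve1 and Stab1 because of that difference. Their values below are therefore a description of these 8 livers, and an adjusted p printed for a marker is its place among all probe sets of the array and not independent evidence.

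Total liver RNA of 4 SIRT7 KO mice and 4 WT mice was read on Affymetrix GeneChip mouse arrays after biotin labelling, 1 array a sample. SIRT7 is a histone deacetylase, and the study used its knockout as a mouse model of fatty liver disease. The study describes this model as one kept on chow, and the sources used here name no drug for the array mice and state neither their age, sex and litter nor the cell types lacking the gene, so each p-value measures only the spread between these samples. Values are log2 expression, on which a difference of 1 is a doubling, and differences are SIRT7 KO minus WT.

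Sinusoidal endothelial cells line the capillaries between the portal and the central veins, and their open pores and missing basement membrane let plasma reach the hepatocytes. They are the scavengers of the liver, clearing hyaluronan, modified proteins and immune complexes from the blood with receptors such as the stabilins, and they signal to hepatocytes, for example with the BMP ligands that set hepcidin output. In RNA of whole liver, fewer cells of a type and less RNA in each cell cannot be told apart. Lyve1 is also made by lymphatic endothelium, and both Lyve1 and Stab1 by some macrophages.

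The arrays bore out their genotype labels. Sirt7 (1424238_at) had log2 values of 4.73, 4.53, 4.40 and 4.90 on SIRT7 KO arrays 1 to 4, against 8.98, 8.97, 8.88 and 8.57 on WT arrays 1 to 4. Median log2 expression lay between 6.30 and 6.36 on every array. The hepatocyte gene Alb (albumin) averaged 15.2 in SIRT7 KO and 15.2 in WT. The Gapdh control probe sets, a measure of RNA integrity, did follow genotype. Their 3' minus 5' difference was 0.11 ± 0.08 in SIRT7 KO and 0.22 ± 0.06 in WT (SD, n = 4 each). The groups did not overlap, by a narrow margin (highest SIRT7 KO 0.160, lowest WT 0.163). The same difference of the actin control probe sets did overlap. It was 1.29, 1.63, 1.47 and 1.58 on SIRT7 KO arrays 1 to 4, against 1.64, 1.58, 1.59 and 1.58 on WT arrays 1 to 4. The spike-in controls, which carry no liver RNA, were lower in SIRT7 KO for 42 of 45 probe sets, by a mean difference of -0.16. The first principal component (28.0% of the variance) placed WT array 4 at -34.5, outside the other WT arrays (-11.2 to -2.10). The part of these 3 features in the results below was not tested beyond the alternatives given.

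Stab1 and Stab2, the closely related stabilins, are shown with the 300 bases of their promoters because only Stab1 passed the threshold described below. Tek is shown as the endothelial receptor gene that differs from the others in the motifs searched. The sequences run from 250 bases before to 50 bases after the start of the gene, are from RefSeq on GRCm38.p6, and are written 5′ to 3′ on the strand of the gene. Of the 10 markers, 7 matched an entry, and these were Stab1, Stab2, Clec4g, Kdr, Fcgr2b, Eng and Tek. Capitals mark the letters GGAAG, which hold the core GGAA of the ETS factors that govern endothelial genes. They also mark the letters GATAA, bound by GATA factors such as the sinusoidal regulator GATA4. Each was searched on both strands. Stab1 lies on chr14:31168592-31168891 (minus strand), Stab2 on chr10:87007893-87008192 (minus strand) and Tek on chr4:94739039-94739338 (plus strand).
Stab1: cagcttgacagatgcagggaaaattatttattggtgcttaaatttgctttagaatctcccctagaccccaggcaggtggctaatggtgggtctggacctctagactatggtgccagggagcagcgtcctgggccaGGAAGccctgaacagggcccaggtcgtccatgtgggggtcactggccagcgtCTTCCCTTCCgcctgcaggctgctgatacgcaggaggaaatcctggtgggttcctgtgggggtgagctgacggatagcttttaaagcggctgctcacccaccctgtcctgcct
Stab2: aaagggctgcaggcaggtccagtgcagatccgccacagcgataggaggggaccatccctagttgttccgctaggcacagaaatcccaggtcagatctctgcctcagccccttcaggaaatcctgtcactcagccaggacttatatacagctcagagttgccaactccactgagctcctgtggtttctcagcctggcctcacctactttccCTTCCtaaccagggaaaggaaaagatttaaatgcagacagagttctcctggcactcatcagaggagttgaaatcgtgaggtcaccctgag
Tek: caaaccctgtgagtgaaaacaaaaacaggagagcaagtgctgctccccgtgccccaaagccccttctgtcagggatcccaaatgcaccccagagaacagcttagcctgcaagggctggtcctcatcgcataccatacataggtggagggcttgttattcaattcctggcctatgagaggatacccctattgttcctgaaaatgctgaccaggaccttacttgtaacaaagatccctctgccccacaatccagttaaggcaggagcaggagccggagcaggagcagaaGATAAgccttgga
GGAAG stood 3 times in the Stab1 window, 1 time in that of Stab2 and 0 times in that of Tek, which alone of the 7 held GATAA. The bare core GGAA was not counted, and the Tek window does hold it on the other strand, as ttcc. GGAAG was present in 6 of the 7 windows, and in 71.4% of all 32851 promoter windows of this length. GATAA was present in 25.4% of all these windows. These matches are a description of the letters, not of binding.

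Lyve1 was higher in SIRT7 KO livers, Stab1 was slightly lower, and the remaining 8 markers did not pass the test in either direction. A probe set was called at an adjusted p under 0.15 (limma, Benjamini-Hochberg over all 22626 probe sets), the false discovery rate of the study's methods. Of the 16 marker probe sets, 3 were called, 2 higher and 1 lower, beside 4.31% of all probe sets (1.92% higher and 2.39% lower). Over all probe sets the calls split into 434 higher and 541 lower, but into 2939 higher and 162 lower after centring on the spike-in controls, a scaling that adds 0.16 to every difference. The same 3 were those without overlap between the 4 SIRT7 KO and the 4 WT values, beside 9.35% of all probe sets (3.79% higher and 5.56% lower). With a gene represented by its brightest probe set, 3 markers had a positive and 7 a negative difference, with a median of -0.08, beside a median of -0.0031 over all genes. Of the 10 markers, 2 were then called, Lyve1 and Stab1, beside 4.65% of all genes (2.17% higher and 2.48% lower). Nothing is read from these counts, since the list was chosen on the same contrast.

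**Figure D1:**
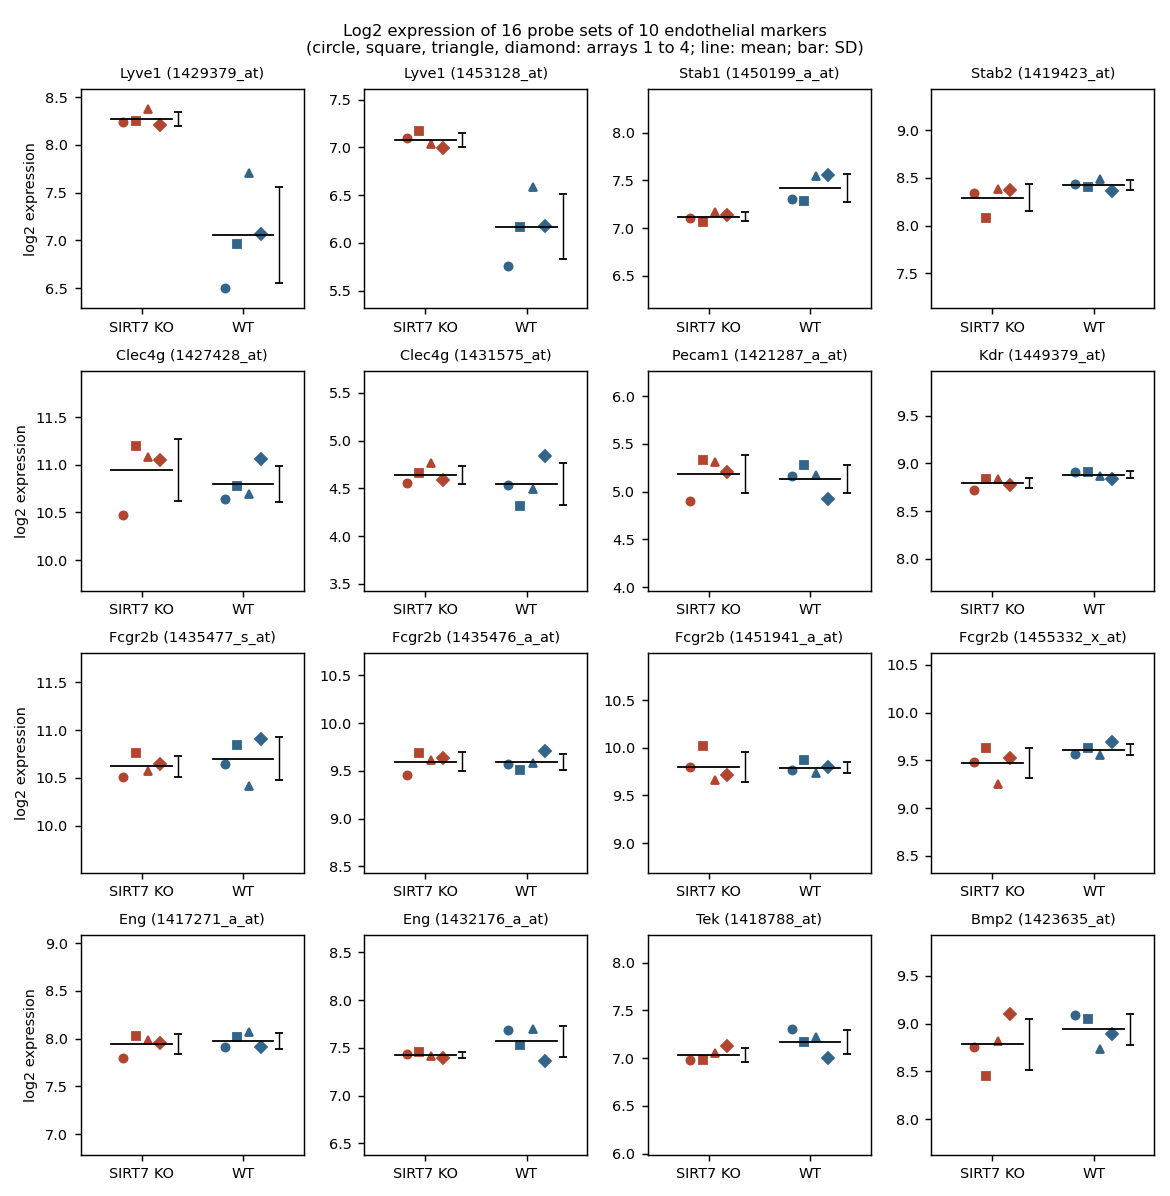
Log2 expression of the 16 probe sets of the 10 markers, 1 panel each on axes of equal span, with SIRT7 KO left of WT, arrays 1 to 4 as circle, square, triangle and diamond, a line at the mean and a bar for the SD (n = 4). Both Lyve1 panels place all SIRT7 KO arrays above all WT arrays, the Stab1 panel places them below, and in the other 13 panels the groups overlap.

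Lyve1, which encodes a hyaluronan receptor of sinusoidal and lymphatic endothelium, was measured by 2 probe sets. The brighter (1429379_at) had log2 values of 8.24, 8.25, 8.38 and 8.21 on SIRT7 KO arrays 1 to 4, against 6.50, 6.96, 7.71 and 7.06 on WT arrays 1 to 4. All 4 SIRT7 KO livers thus lay close together and above every WT liver, whereas the WT livers were spread out, with array 1 lowest and array 3 highest. Means were 8.27 ± 0.07 in SIRT7 KO and 7.06 ± 0.50 in WT (SD, n = 4 each), a difference of 1.21 ± 0.21 (SE), or 2.32-fold, with an adjusted p of 0.0463 in limma.

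The dimmer Lyve1 probe set (1453128_at) had 7.10, 7.17, 7.03 and 7.00 on SIRT7 KO arrays 1 to 4, against 5.76, 6.17, 6.58 and 6.18 on WT arrays 1 to 4. The 4 WT livers stood in the same order as on the brighter probe set, array 1 lowest, then 2, 4 and 3, while the order of the SIRT7 KO livers differed between the probe sets. Means were 7.08 ± 0.08 in SIRT7 KO and 6.17 ± 0.34 in WT (SD, n = 4 each), a difference of 0.91 ± 0.15 (SE), or 1.87-fold, with an adjusted p of 0.0420 in limma. Without any 1 of the 8 arrays both probe sets still passed the threshold, with differences of 1.03 to 1.43 (adjusted p 0.0108 to 0.110) for the brighter and 0.77 to 1.04 (adjusted p 0.0191 to 0.106) for the dimmer. At an FDR of 0.05, which 0.689% of all probe sets passed, both were called too.

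The stabilins are large scavenger receptors of the sinusoidal surface. Stab1 (1450199_a_at) had log2 values of 7.11, 7.07, 7.17 and 7.14 on SIRT7 KO arrays 1 to 4, against 7.31, 7.29, 7.54 and 7.55 on WT arrays 1 to 4. The SIRT7 KO livers were again close together and all below the WT livers, which fell into a lower pair (arrays 1 and 2) and a higher pair (arrays 3 and 4). Means were 7.12 ± 0.05 in SIRT7 KO and 7.42 ± 0.14 in WT (SD, n = 4 each), a difference of -0.30 ± 0.08 (SE), with an adjusted p of 0.132 in limma. The call was narrow: leaving out 1 array kept it in 1 of 8 fits, that without WT array 2 (adjusted p 0.142), and gave adjusted p-values of up to 0.265 in the others, with differences of -0.35 to -0.26. Centring the arrays on the spike-in controls, which raises every difference by 0.16, left -0.14 with an adjusted p of 0.412.

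Stab2 (1419423_at), the hyaluronan clearance receptor, had 8.34, 8.08, 8.38 and 8.38 on SIRT7 KO arrays 1 to 4, against 8.44, 8.41, 8.49 and 8.36 on WT arrays 1 to 4. The groups overlapped by 1 WT array, and SIRT7 KO array 2 lay below all others. The difference of -0.13 ± 0.08 (SE) had an adjusted p of 0.523 in limma and a 95% interval of -0.31 to 0.05. Whether the change of Stab1 differed from that of Stab2 was not tested.

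**Figure D2:**
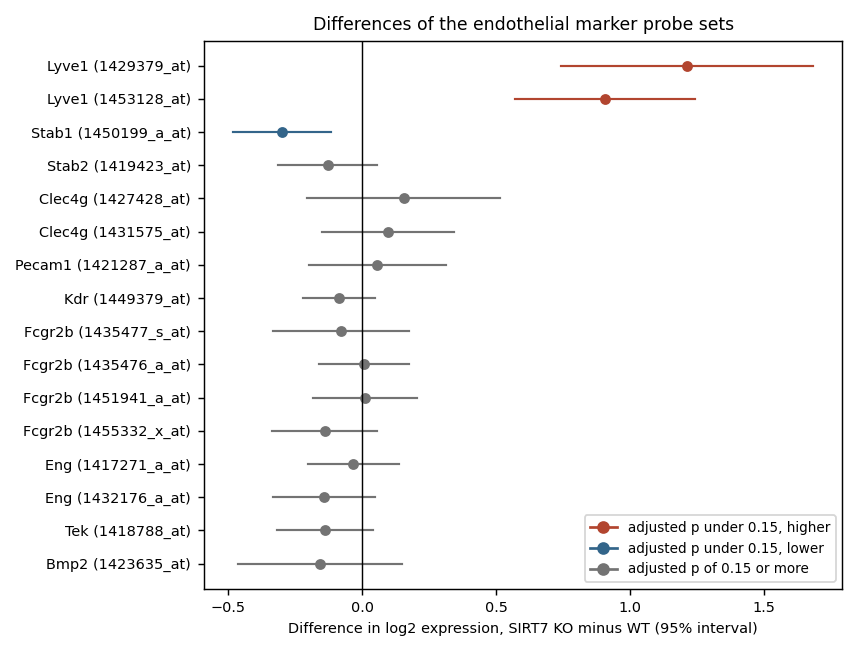
Difference in log2 expression, SIRT7 KO minus WT, of the 16 marker probe sets with 95% intervals of the limma fit (n = 4 each), red for called higher, blue for called lower and grey for not called. Both Lyve1 intervals lie above 0 and that of Stab1 below it, whereas all 13 grey intervals include 0 and stay between -0.46 and 0.51.

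The other 13 probe sets differed by -0.16 to 0.15 between genotypes, with adjusted p-values of 0.475 to 0.985 and 95% intervals reaching from -0.46 to 0.51. A p-value of this size does not show equal levels. Clec4g encodes LSECtin, a C-type lectin of sinusoidal endothelium. Its brighter probe set (1427428_at) had 10.47, 11.19, 11.09 and 11.04 on SIRT7 KO arrays 1 to 4, against 10.64, 10.78, 10.69 and 11.06 on WT arrays 1 to 4. SIRT7 KO array 1 was the lowest of all 8 while the other 3 lay near the highest WT value or above it, so the groups overlapped, with a difference of 0.15 ± 0.16 (SE). The dimmer Clec4g probe set (1431575_at) averaged 4.64 in SIRT7 KO and 4.55 in WT.

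Pecam1, the junctional adhesion molecule CD31 of all endothelium, averaged 5.19 ± 0.20 in SIRT7 KO and 5.13 ± 0.15 in WT (SD, n = 4 each), a difference of 0.06 ± 0.11 (SE). This probe set (1421287_a_at) and the dimmer one of Clec4g lay below 6.35, the median of all probe set means, and their signal over background was not analysed here. Fcgr2b, the inhibitory Fc receptor with which sinusoidal cells take up immune complexes, was read by 4 probe sets. Their differences were -0.08 (1435477_s_at), 0.0048 (1435476_a_at), 0.0099 (1451941_a_at) and -0.14 (1455332_x_at), all with overlap. The suffixes s and x mark probes that can bind other transcripts, and Fcgr2b closely resembles Fcgr3 in its extracellular part, so these values are uncertain. The brightest Fcgr3 probe set averaged 8.35 in SIRT7 KO and 8.20 in WT.

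Among the receptors for endothelial growth signals, Kdr, the main VEGF receptor VEGFR2, had 8.73, 8.83, 8.84 and 8.78 on SIRT7 KO arrays 1 to 4, against 8.91, 8.91, 8.87 and 8.84 on WT arrays 1 to 4. Only SIRT7 KO array 3 reached the WT range, and the difference of -0.09 ± 0.06 (SE) was small (adjusted p 0.560 in limma). Tek, the angiopoietin receptor Tie2, had 6.98, 6.98, 7.06 and 7.13 on SIRT7 KO arrays 1 to 4, against 7.30, 7.17, 7.22 and 7.00 on WT arrays 1 to 4. WT array 4 fell among the SIRT7 KO values, and the difference was -0.14 ± 0.08 (SE), with an adjusted p of 0.475 in limma.

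Eng encodes endoglin, a co-receptor for BMP9 and BMP10. Its brighter probe set (1417271_a_at) differed by -0.03 ± 0.08 (SE) and its dimmer one (1432176_a_at) by -0.14 ± 0.08 (SE). The dimmer one had 7.43, 7.46, 7.41 and 7.39 in SIRT7 KO, against 7.68, 7.53, 7.70 and 7.36 in WT, where again WT array 4 was the one not above the SIRT7 KO arrays. Bmp2, one of the endothelial ligands that raise hepcidin, had 8.75, 8.45, 8.82 and 9.10 on SIRT7 KO arrays 1 to 4, against 9.09, 9.04, 8.74 and 8.89 on WT arrays 1 to 4. Its groups overlapped over most of their range, and the difference was -0.16 ± 0.14 (SE), with an adjusted p of 0.653 in limma. Each negative difference of Stab2, Kdr, Tek and Eng, and of Fcgr2b on 1435477_s_at and 1455332_x_at, turned positive (0.01 to 0.12) when the arrays were centred on the spike-in controls, so their direction depended on the scaling.

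Over the 10 markers together, the mean deviation of an array from the mean of all arrays ran from -0.09 to 0.09 in SIRT7 KO and from -0.08 to 0.02 in WT. Over the 8 markers other than Lyve1 and Stab1 it ran from -0.17 to 0.05 in SIRT7 KO and from -0.02 to 0.08 in WT. The livers of both genotypes thus overlapped on either measure, with SIRT7 KO array 1 lowest. Variation among the livers of a group differed between markers: the WT SD of Lyve1 was 0.50 and that of Kdr was 0.04, and the median SD over the 16 probe sets was 0.10 in SIRT7 KO and 0.15 in WT, with the larger SD in WT for 7 of the 16.

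**Figure D3:**
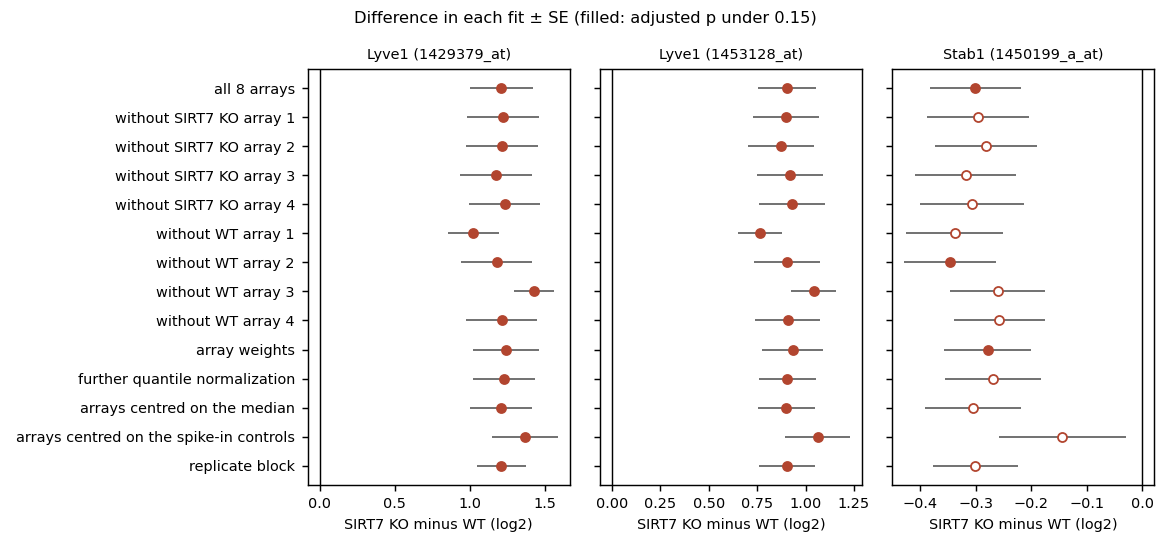
Difference of Lyve1 (2 probe sets) and Stab1, SIRT7 KO minus WT in log2 expression ± SE, in the fit of all 8 arrays, without each array and under other settings, with filled points where the adjusted p was under 0.15. Lyve1 is filled in every fit shown, whereas Stab1 is open in 7 of the 8 fits that leave out an array, after quantile normalization, after centring on the median or on the spike-in controls, and with the replicate block.

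Endothelial genes outside the 10 markers were read from 3 lists, pan-endothelial, further sinusoidal and large-vessel. Counted the same way, 50 of 56 such genes were measured, of which 1 was called (2%), beside 4.65% of all genes, and their median difference was -0.0071. The called gene was S1pr1, the sphingosine-1-phosphate receptor that stabilises endothelial junctions, which had 7.17, 7.64, 7.75 and 7.71 on SIRT7 KO arrays 1 to 4, against 8.30, 8.21, 8.03 and 7.84 on WT arrays 1 to 4. Its groups did not overlap, and the difference was -0.53 ± 0.15 (SE), with an adjusted p of 0.137 in limma. Leaving out 1 array kept this call in 1 of 8 fits, that without WT array 4 (adjusted p 0.109), and gave adjusted p-values of 0.172 to 0.295 in the others. It was also lost with quantile normalization (0.170) and with the replicate number as a block (0.242). After centring on the spike-in controls 8 of the 50 genes were called, beside 3101 of all 22626 probe sets (2939 higher and 162 lower). The 8 were S1pr1, lower (-0.37), and Edn1, Egfl7, Emcn, F8, Flt4, Gja5 and Plvap, higher (0.31 to 0.46). Edn1, Emcn and Gja5 had mean levels below 6.35, the median of all probe set means.

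Of the 20 pan-endothelial genes measured, 5 had a positive and 15 a negative difference, beside 49.3% positive over all genes. Their median was -0.09, and 4 stood at an unadjusted p under 0.05 in limma, beside 1937 of 12393 genes. This median is smaller in size than the 0.16 that centring on the spike-in controls adds to every difference. The direction of the split thus depended on the scaling. The shear-induced factor Klf2 differed by -0.40 ± 0.15 (SE, adjusted p 0.271), the junctional cadherin Cdh5 by -0.07 and the endothelial sialomucin Emcn by 0.29. None of these 3 passed the test, and all had overlapping groups. Of the 15 further sinusoidal genes, 7 had a positive and 8 a negative difference, 0 were called by limma (2 at an unadjusted p under 0.05) and the median was -0.02. F8, coagulation factor VIII, which sinusoidal cells produce, had 8.62, 8.68, 8.62 and 8.68 on SIRT7 KO arrays 1 to 4, against 8.42, 8.51, 8.36 and 8.47 on WT arrays 1 to 4. Its groups did not overlap, yet with a difference of 0.21 ± 0.06 (SE) its adjusted p of 0.155 in limma missed the threshold.

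The sinusoidal regulator Gata4 differed by -0.02 (SE 0.07), the sinusoidal receptor Gpr182 by -0.08 and the mannose receptor Mrc1 by -0.12, none past the test. Of the 15 genes measured from the large-vessel list, 13 had a positive and 2 a negative difference, beside 49.3% positive over all genes. Limma called 0 of them (2 at an unadjusted p under 0.05), and their median was 0.09. Most of this list, Vwf and Cd34 included, had mean levels below 6.35, the median of all probe set means. Plvap, which forms the diaphragms of endothelial pores and caveolae, had 8.68, 8.42, 8.71 and 8.62 on SIRT7 KO arrays 1 to 4, against 8.33, 8.43, 8.31 and 8.15 on WT arrays 1 to 4. SIRT7 KO array 2 lay inside the WT range, and the difference of 0.30 ± 0.09 (SE) had an adjusted p of 0.155 in limma. Vwf and Cd34, from the same list, differed by 0.14 each and did not pass.

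**Figure D4:**
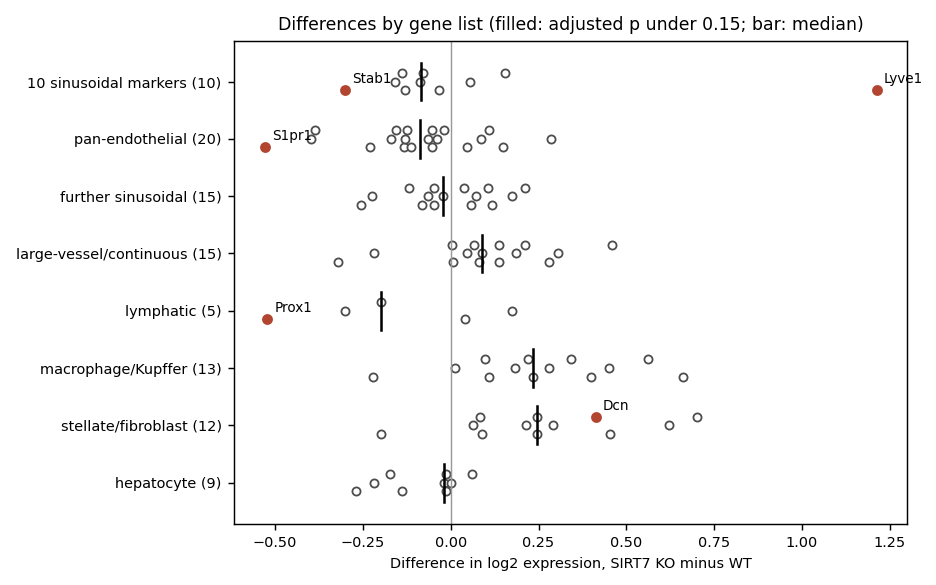
Difference in log2 expression, SIRT7 KO minus WT, for the 10 markers and 7 lists (endothelial, lymphatic, macrophage, stellate and hepatocyte), with 1 point a gene (its brightest probe set) and the number of genes measured; filled points had an adjusted p under 0.15 and black bars are medians. Among the genes plotted Lyve1 lies at 1.21, S1pr1, Prox1 and Stab1 are the filled points below 0, and the list medians lie between -0.20 and 0.25.

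Markers of other cells that make Lyve1 or Stab1 were read beside them. Of 5 lymphatic genes measured, 2 had a positive and 3 a negative difference, with a median of -0.20 (3 at an unadjusted p under 0.05), and 1 was called, beside 4.65% of all genes. The called gene was lower: Prox1, the lymphatic master factor, which hepatocytes also express, had 5.06, 4.81, 4.85 and 4.74 on SIRT7 KO arrays 1 to 4, against 5.53, 5.43, 5.10 and 5.49 on WT arrays 1 to 4. This was a difference of -0.52 ± 0.11 (SE, adjusted p 0.0718 in limma), whereas Flt4, the VEGF receptor of lymphatic endothelium, differed by 0.18 and the lymphatic mucin Pdpn by 0.04, neither past the test. The call of Prox1 was lost without SIRT7 KO array 2 (adjusted p 0.156), SIRT7 KO array 4 (0.188) or WT array 1 (0.189). Both Prox1 and Pdpn had mean levels below 6.35, the median of all probe set means. Of 13 macrophage and Kupffer cell genes, 0 were called by limma and 0 stood at an unadjusted p under 0.05. In 12 of them the difference was positive, beside 49.3% of all genes, with a median of 0.23. Their summed log2 level ran from 118.7 to 129.5 in SIRT7 KO and from 116.4 to 128.0 in WT. The Kupffer cell lectin Clec4f differed by 0.01 and the lysozyme gene Lyz2 by 0.66 (adjusted p 0.352).

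Of 12 stellate cell and fibroblast genes, 11 had a positive difference, beside 49.3% of all genes, with a median of 0.25, and 1 was called higher (5 at an unadjusted p under 0.05), beside 2.17% of all genes. That gene was the matrix proteoglycan Dcn, at 12.43, 12.17, 12.37 and 12.28 on SIRT7 KO arrays 1 to 4, against 11.86, 12.15, 11.87 and 11.72 on WT arrays 1 to 4 (difference 0.41 ± 0.10 SE, adjusted p 0.103 in limma). Without 1 array the call of Dcn held in 2 of 8 fits (adjusted p 0.0920 to 0.233), and it was lost with the replicate number as a block (0.195). The summed level of the list ran from 95.5 to 99.3 in SIRT7 KO and from 91.1 to 95.5 in WT. Of 9 hepatocyte genes, 0 were called by limma (1 at an unadjusted p under 0.05), while 1 had a positive and 8 a negative difference, with a median of -0.02. Their summed log2 level ran from 127.5 to 128.0 in SIRT7 KO and from 128.2 to 128.9 in WT, without overlap. As a mean over the genes this was 14.17 to 14.23 in SIRT7 KO and 14.24 to 14.32 in WT. These ranges lie closer than the 0.16 that spike-in centring adds to every difference, so the direction depended on the scaling. Hnf4a (-0.27) and Fgb (-0.22) differed most, whereas Alb, Apoa1, Apoa2 and Ttr differed by -0.02 to -0.0001. The part of these other cell types in the values of Lyve1 and Stab1 was not tested.

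Genes of the pathways in which the markers act were counted in the same way, beside 4.65% of all genes called and 1937 of 12393 genes at an unadjusted p under 0.05. Of 13 VEGF and angiopoietin genes, 0 were called by limma (3 at an unadjusted p under 0.05). Vegfa, the ligand of Kdr, differed by -0.0033, its other receptor Flt1 by -0.02, and Angpt2, the Tek antagonist, by 0.26 ± 0.08 (SE, adjusted p 0.192). Of 21 BMP and TGF-beta genes, 1 was called (6 at an unadjusted p under 0.05), and that was lower: Acvr2a, a type 2 activin and BMP receptor, averaged 8.87 in SIRT7 KO and 9.17 in WT, without overlap (difference -0.30 ± 0.07 SE, adjusted p 0.0812). Its dimmer probe set differed by -0.34 (adjusted p 0.181), also without overlap. The call of Acvr2a was lost without SIRT7 KO array 4 (adjusted p 0.192), WT array 1 (0.203) or WT array 2 (0.160), after centring on the spike-in controls (0.327) and with the replicate number as a block (0.167). This list had 7 positive and 14 negative differences, with a median of -0.13. The direction of this split depended on the scaling too, as centring on the spike-in controls adds 0.16 to every difference.

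Hamp, the hepcidin gene that endothelial Bmp2 and Bmp6 induce in hepatocytes, had 8.85, 11.36, 11.02 and 11.73 on SIRT7 KO arrays 1 to 4, against 12.20, 13.01, 12.74 and 12.05 on WT arrays 1 to 4. Every SIRT7 KO liver was below every WT liver, with SIRT7 KO array 1 far below the rest. The difference was -1.76 ± 0.55 (SE), with an adjusted p of 0.179 in limma, so it missed the threshold. Bmp6 differed by -0.26 ± 0.12 (SE, adjusted p 0.359), the shared signal carrier Smad4 by -0.21 (adjusted p 0.163) and the feedback inhibitor Smad6 by -0.27 (adjusted p 0.185). The BMP target Id1 differed by -0.19 ± 0.26 (SE), with no call.

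For the ligand and cargo of the scavenging receptors, 8 hyaluronan genes (synthases, hyaluronidases and the receptor Cd44) held 0 calls, with a median of -0.01, and 6 Fc receptor genes held 0, with a median of 0.14, and neither list had a gene at an unadjusted p under 0.05. Of the hyaluronan genes, the synthases Has1, Has2 and Has3 as well as Cemip and Hmmr had mean levels below 6.35, the median of all probe set means. Of 12 scavenger and lectin receptors, 1 was called (5 at an unadjusted p under 0.05), and that was lower: Asgr2, a subunit of the hepatocyte asialoglycoprotein receptor, averaged 7.46 in SIRT7 KO and 8.03 in WT (difference -0.57 ± 0.09 SE, adjusted p 0.0381). Cd36, the fatty acid and lipoprotein receptor, averaged 10.48 in SIRT7 KO and 9.10 in WT, a difference of 1.37 ± 0.43 (SE) that missed the threshold with an adjusted p of 0.181.

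The genes whose values followed Lyve1 or Stab1 most closely were sought among genes brighter than the median. There were 6922 of these, a count that includes other markers, which were left out of the ranking. The measure was Pearson's r of the deviations from each genotype's mean over the 8 arrays, so that the genotype difference itself played no part. The highest were Noc4l (0.93), Ikbkb (0.93) and Zdhhc14 (0.92) for Lyve1. For Stab1 they were Ube3b (0.97), Tbxa2r (0.96) and C86187 (0.95). As these are the highest of 6922 correlations over 8 points of shared arrays, they are a description only. Whether other markers of the list followed Lyve1 or Stab1 was not examined.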

How the data were processed

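Liver RNA of 4 SIRT7 KO and 4 WT mice was read on 1 array each. The authors deposited log2 expression values per probe set on each array, after correcting for background, normalizing and summarising the probes. The study's methods name RMA and the submitters' processing notes GCRMA, and which of them made the values is unknown; these methods differ in how they treat dim probe sets. Values were used as deposited, without the 64 control probe sets. SIRT7 KO was compared with WT in limma 3.58.1 (R 4.3.3) with lmFit and eBayes on genotype alone (two-sided). Gene names came from the platform annotation, by which 20380 probe sets had 1 symbol, 691 several and 1555 none. A gene is represented by its brightest probe set. The script was tested on simulated data. The number of arrays limits the precision.

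The members and lists were chosen with earlier results of these data known. The text names Sirt7, all 10 markers, from each other list up to 4 genes with the smallest p and any called gene, defining markers of a list, and the 3 genes most like Lyve1 and Stab1. The alternatives were another threshold, variance trend, array weights, quantile normalization, centring on the median or spike-in controls, a filter on dim probe sets, a replicate block, the mean of a gene's probe sets, and leaving out each array. Whether the replicate numbers pair the arrays is not stated, and the main fit did not use them.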

Additional observations from a re-analysis of the deposited data

Results flagged for a closer look

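Stab2 (1419423_at) was 8.08 on SIRT7 KO array 2, apart from the other 3 SIRT7 KO arrays (8.34 to 8.38), by Dixon's ratio of 0.851, above the 95% critical value for 4 samples. It was the 1 case among 32 groups of 4 arrays examined, and chance alone sets apart about 1 in 20 such groups. Without that array the difference of Stab2 was -0.06, with an adjusted p of 0.782 in limma.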

How the results depend on the processing

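Over all probe sets 975 were called, against 156 at an FDR of 0.05, 3101 after centring on the spike-in controls, 628 with the replicate number as a block and 222 to 900 without 1 array. The marker probe sets called numbered 2 or 3 under every alternative run. Of the 50 further endothelial genes 1 was called, against 0 at an FDR of 0.05, 2 with array weights, 2 with quantile normalization, 2 with median centring, 8 with spike-in centring, 3 after the filter on dim probe sets, 3 with the mean of a gene's probe sets, 0 with the replicate block and 0 to 1 without 1 array.

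Stab1 lost its call at an FDR of 0.05, with quantile normalization (-0.27, adjusted p 0.197), median centring (-0.31), spike-in centring (-0.14, 0.412) and the replicate block (adjusted p 0.174). Spike-in centring turned the sign of Eng (0.123 on 1417271_a_at and 0.0125 on 1432176_a_at), Fcgr2b (0.0772 on 1435477_s_at and 0.0164 on 1455332_x_at), Kdr (0.0689), Stab2 (0.0269) and Tek (0.0181), none called, as the setting adds 0.16 to every difference. Quantile normalization turned Eng (1417271_a_at) to 0.0047. Without 1 array, signs also turned for Eng (1417271_a_at, -0.0626 to 0.0150), Fcgr2b (1435476_a_at, -0.0237 to 0.0514, and 1451941_a_at, -0.0625 to 0.0550) and Pecam1 (-0.0152 to 0.152). The cause was not tested for the other settings. The deviations of same-numbered arrays of both genotypes had correlations of differing sign (0.26, -0.25, -0.16 and 0.15). The sources used do not state whether such arrays share a litter or batch, so what the block joins is unknown. With 4 arrays a group, the 95% intervals of the marker probe sets not called reached from -0.46 to 0.51.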

Other observations

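Markers of blood and duct cells in the same livers were counted beside 4.65% of all genes called. Cd3g, a chain of the T cell receptor complex, averaged 4.38 in SIRT7 KO and 4.77 in WT (difference -0.39 ± 0.11 SE, adjusted p 0.137 in limma), with overlapping groups and mean levels below the median of all probe set means. Its call was lost in 6 of the 8 fits without 1 array (adjusted p 0.0871 to 0.288 over the 8), with spike-in centring (0.281) and with the replicate block (0.183). Of 7 T and NK cell genes that was the 1 called, while 5 B cell genes, 5 cholangiocyte genes and 5 platelet genes held 0 calls, with 0, 0 and 2 genes at an unadjusted p under 0.05. All measured genes of the T and NK cell, B cell and cholangiocyte lists had mean levels below 6.35, the median of all probe set means. So did the platelet genes Ppbp, Gp9 and Gp1bb. The platelet integrin Itga2b differed by 0.22 (adjusted p 0.151) and platelet factor Pf4 by 0.29 (adjusted p 0.238).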
